A study of Homo sapiens with 4 samples.

Results

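The HOX cluster genes were examined in RNA-seq of MORC2 KO and wild-type HEK293T cells. The members were taken by symbol, as the RefSeq protein-coding genes named HOXA, HOXB, HOXC or HOXD followed by digits, and numbered 39 of the 28775 genes in the deposited table. HEK293T is a transformed human embryonic kidney line, and MORC2 is an ATPase that acts in gene silencing together with the HUSH complex. The KO samples were 2 HEK293T cultures labelled MORC2 knock-out, made with gRNA 1 in replicate 1 and gRNA 2 in replicate 2, and the controls were 2 wild-type HEK293T cultures. The study's methods describe the KO as bulk populations electroporated with Cas9 protein and a gRNA, which were not clones, and they name the parental cells as HEK293 where the labels have HEK293T. Polyadenylated RNA was sequenced. The methods call the WT replicates and the KO lines independent of each other, so the spread among KO samples includes that between separately edited populations and gRNAs. The 2 gRNA sequences printed in the methods are the same stretch shifted by 1 base, so both target nearly the same site.

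HOX genes encode homeodomain transcription factors that set position along the body axis. In mammals they lie in 4 clusters on separate chromosomes, and within a cluster the gene order follows the order of the regions where the genes act, from anterior (low paralog numbers) to posterior (high paralog numbers). Polycomb complexes keep HOX genes repressed where they are not used, and Trithorax and MLL complexes keep them active where they are. The comparison asked how the HOX genes moved in MORC2 KO cells. They were set beside the zinc finger genes that earlier results of these data had named among the genes that moved. RNA counts do not measure whether these complexes control the HOX genes in HEK293T cells.

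The libraries held between 53970043 and 64312514 counted read pairs, and the HOX genes together took between 0.0388% and 0.0461% of them. The MORC2 count itself was 3064 and 3637 in KO and 5131 and 4669 in WT. The log2 fold change was -0.71 ± 0.06 (SE, edgeR quasi-likelihood test, adjusted p = 0.000137), so MORC2 transcript was lower but still present. The study checked the knock-out on protein, by western blot of cells from both gRNAs, and RNA counts do not measure protein. Of 6 genes typical of HEK293T cells (KRT8, KRT18, VIM, PAX2, NEFL and NEFM) all 6 passed the low-count filter. Of 8 markers of other cell types, 2 passed it (COL1A1 and ALB), and PTPRC, INS, HBB, MYH7, CDH5 and AFP had between 0 and 2 counts in each sample. COL1A1 had 238 and 197 counts in WT, more than KRT8 (120 and 131) and PAX2 (92 and 76). It had fewer than KRT18, VIM, NEFL and NEFM. In all, 98 of 16675 tested genes were called higher in KO (0.588%) and 5 lower (0.03%), 0.618% together, at an adjusted p under 0.05. With offsets for GC content and length these numbers were 191 and 109.

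The promoters of 4 members are printed for their contrast in level. HOXD13 was among the highest HOX genes per length and HOXD4 had the largest fitted change, whereas HOXD12 and HOXB1 were at or near 0 counts. Each is the RefSeq window from 250 bases before to 50 bases after the transcription start on GRCh38.p14, read 5′ to 3′ on the gene's strand, with CpG dinucleotides in capitals. HOXD13 lies at chr2:176092471-176092770 on the plus strand, HOXD12 at chr2:176099545-176099844 on the plus strand, HOXD4 at chr2:176151300-176151599 on the plus strand, and HOXB1 at chr17:48530962-48531261 on the minus strand.
HOXD13: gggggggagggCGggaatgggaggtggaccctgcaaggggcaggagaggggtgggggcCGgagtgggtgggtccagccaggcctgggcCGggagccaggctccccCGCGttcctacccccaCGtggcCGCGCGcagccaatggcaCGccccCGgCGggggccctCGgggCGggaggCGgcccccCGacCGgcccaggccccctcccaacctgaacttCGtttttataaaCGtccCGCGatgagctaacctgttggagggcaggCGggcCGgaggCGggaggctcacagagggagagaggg
HOXD12: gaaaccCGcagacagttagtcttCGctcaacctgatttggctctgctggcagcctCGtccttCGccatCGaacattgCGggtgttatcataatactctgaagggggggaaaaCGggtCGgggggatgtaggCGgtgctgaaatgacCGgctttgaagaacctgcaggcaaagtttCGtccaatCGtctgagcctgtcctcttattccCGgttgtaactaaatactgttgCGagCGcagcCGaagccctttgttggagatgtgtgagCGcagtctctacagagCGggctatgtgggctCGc
HOXD4: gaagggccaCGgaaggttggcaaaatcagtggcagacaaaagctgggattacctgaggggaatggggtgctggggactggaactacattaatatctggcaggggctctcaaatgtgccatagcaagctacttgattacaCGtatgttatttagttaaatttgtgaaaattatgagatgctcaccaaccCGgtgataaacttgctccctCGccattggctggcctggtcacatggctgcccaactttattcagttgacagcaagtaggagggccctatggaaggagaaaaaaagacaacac
HOXB1: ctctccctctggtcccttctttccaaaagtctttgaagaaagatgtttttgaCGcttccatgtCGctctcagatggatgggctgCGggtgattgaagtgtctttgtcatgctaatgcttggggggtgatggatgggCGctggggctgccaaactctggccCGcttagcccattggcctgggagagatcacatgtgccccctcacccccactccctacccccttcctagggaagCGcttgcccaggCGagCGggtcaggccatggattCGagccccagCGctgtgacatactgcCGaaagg
The 4 windows held 24 CpG in HOXD13, 19 in HOXD12, 4 in HOXD4 and 11 in HOXB1. The ratio of observed to expected CpG was 0.60, 0.87, 0.24 and 0.44 in the same order, so the window of nearly silent HOXD12 had a higher ratio than that of highly expressed HOXD13. RefSeq promoter windows were matched for 20 of the 39 members (27 windows, since some genes have several starts). HOXC4 and HOXC5 have the same window, counted for each, and 7 windows are of HOXA3. Most windows are of HOXA and HOXD members. In HOXB only HOXB1 had a window, and in HOXC only HOXC4 and HOXC5. HOXA5 and HOXB9 had none, so the HOX values below do not describe all 4 clusters alike. Of the 27, 22 had a CpG ratio above 0.6, against 48.8% of all 35116 windows of the same length. The median ratio was 0.85 for HOX and 0.58 for all windows, at a GC content of 58.0% and 58.7%. The letters CCAAT, on either strand, were in 18 of 27 HOX windows (66.7%), against 34.6% of all windows (17 of the 26 distinct HOX windows), and TATAAA was in 5 (18.5%), against 11.5%. The letters AGGTCA, the core letters of sites bound by retinoic acid receptors, were in 0 of 27 HOX windows and 13.8% of all windows. TGATTNAT, a pattern bound by HOX proteins with PBX partners, was in 2 HOX windows (7.4%) and 2.8% of all. These matches describe the letters in the windows and no binding was measured.

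HEK293T cells expressed most HOX genes of all 4 clusters. Levels were compared as counts scaled to library size (CPM) per kilobase of exon, or CPM per kb, which puts genes of different length on 1 scale. In WT samples 29 of 39 members had a mean of at least 1 CPM per kb and 6 had at least 10. HOXA5, which patterns the neck, thorax and lung, was highest at 25.1 ± 0.81 CPM per kb (SD, n = 2). HOXD13, the gene of the digits and the urogenital tract, followed at 18.0 ± 1.07 CPM per kb. HOXB9, a gene of the thoracic region, was next at 16.5 ± 0.381 CPM per kb. After these came HOXA6 (11.6), HOXB7 (11.6) and HOXA10 (11.0 CPM per kb). The 4 highest genes made up 38.2% of the summed HOX level. When the members were ordered by WT level, the 2 WT samples of a gene lay apart from those of the next gene in 24 of 38 neighbouring pairs and overlapped in the other 14. The order of the first 3 genes was the same in both WT samples by this measure.

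At the low end, HOXB1, which acts early in the hindbrain, had 0 counts in all 4 samples, which allows at most 0.0467 to 0.0556 CPM (3 counts in each library, counting error only). HOXC12 had 4 and 4 counts in KO and 1 and 0 in WT. HOXD12 had 6 and 5 counts in KO and 9 and 4 in WT. These 3 genes did not pass the low-count filter and have no test. Both members of paralog group 12 were thus nearly silent, between expressed neighbours on either side.

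Exons shared with other genes lower some of these levels, because read pairs that overlap more than 1 gene were not counted. No exonic base was shared in 24 members, among them HOXA5, HOXB9 and HOXD13, and 15 members shared some. HOXA7 shared 74.8% of its exonic bases with HOXA-AS3, HOXA9 72.4% with the read-through gene HOXA10-HOXA9, and HOXA10 29.9% with that gene and HOXA10-AS. HOXC4, HOXC5 and HOXC6 start from a common exon and shared 22.4%, 24.6% and 24.2% with each other. Per kilobase of unshared exon, HOXA9 had 27.1 CPM in WT samples in place of 7.49, above HOXA5 at 25.1, and HOXA7 had 10.6 in place of 2.67. The order near the top therefore depends on the length used.

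**Figure D1:**
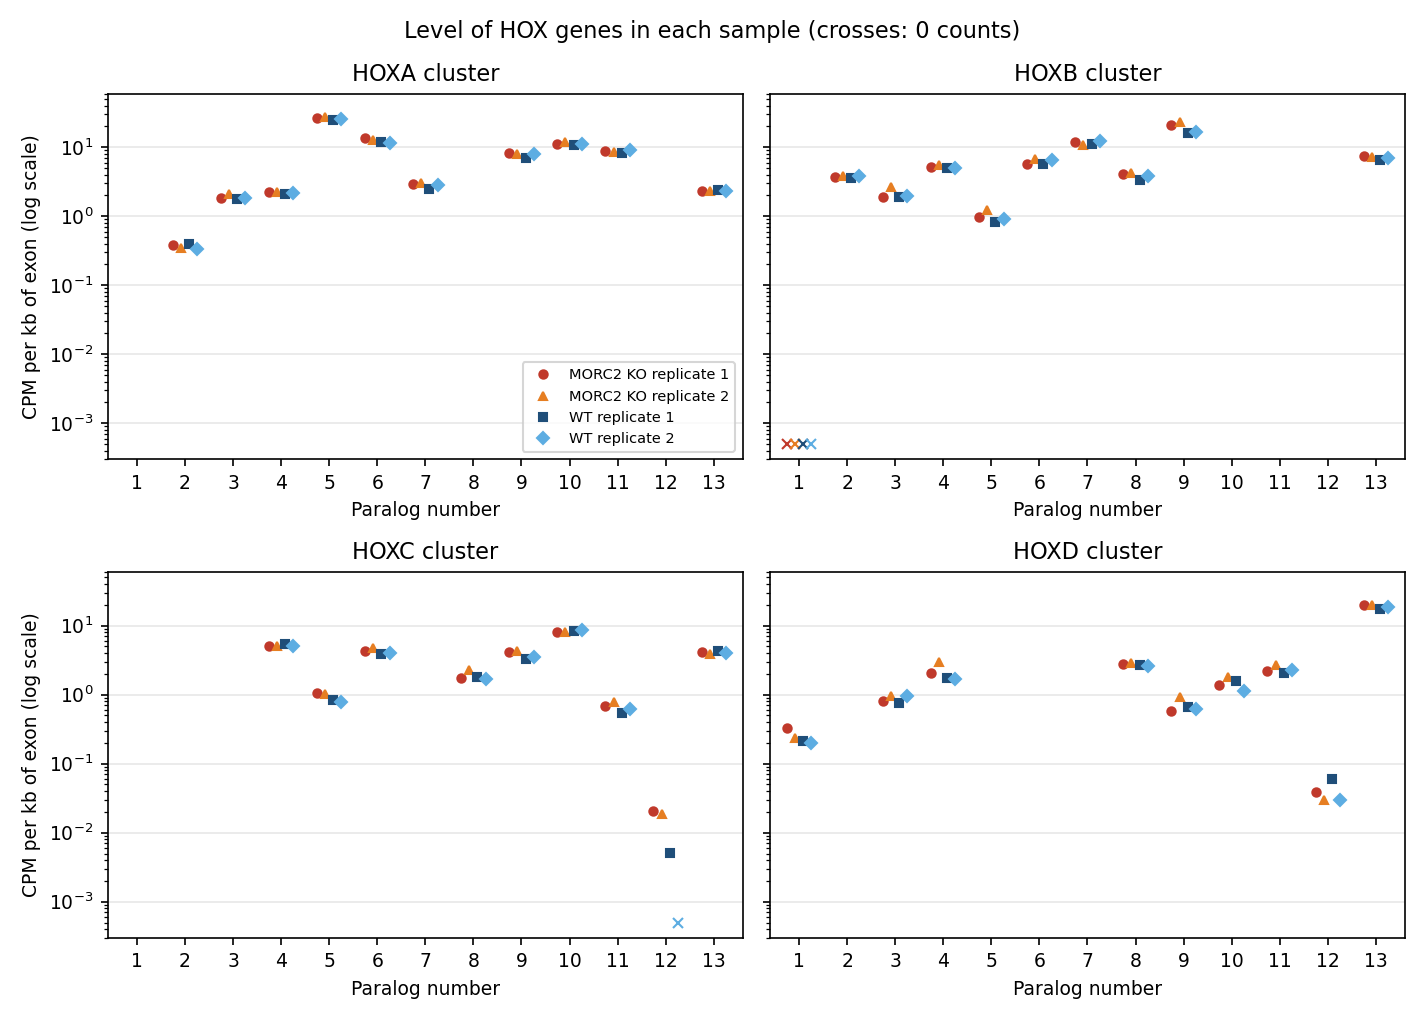
Level of 39 HOX genes less 1 in each sample, 1 panel per cluster, with the paralog number on the x axis and CPM per kb of exon on a log y axis. Points are the 2 KO and 2 WT samples and crosses mark 0 counts. HOXA5, HOXD13 and HOXB9 stand highest, and the members of paralog group 12 and HOXB1 lie at the bottom, with the samples of a gene close together except at low counts.

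The clusters differed in how evenly their genes were expressed. On T2T-CHM13v2.0, the HOXA cluster (chromosome 7, 11 genes) held 39.9% of the summed WT level per length and the HOXB cluster (chr17:49391954-49592351, 10 genes) 30.0%. The HOXC cluster (chr12:53904353-54021597, 9 genes) held 15.3% and the HOXD cluster (chr2:176580842-176679038, 9 genes) 14.9%. In HOXD a single gene dominated, since HOXD13 made up 65.0% of the cluster's WT level. The leading genes of the other clusters took smaller shares, with 33.7% for HOXA5, 29.5% for HOXB9 and 29.8% for HOXC10. HOXD13 sits at the end of its cluster at chr2:176580842-176584065, and its neighbour HOXD12, 3.9 kb away, was nearly silent at 0.0444 CPM per kb.

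Levels ranged widely within each position group, and the median was lowest in the anterior genes. Differences in level between positions were not tested. The 8 anterior genes (paralog groups 1 to 3) had a median WT level of 1.01 CPM per kb, the 15 central genes (groups 4 to 8) 3.59 and the 16 posterior genes (groups 9 to 13) 3.78. The highest anterior gene was HOXB2, a hindbrain gene, at 3.70 CPM per kb. The central genes ranged from HOXC5 at 0.812 to HOXA5, and the posterior genes from HOXC12 at 0.00257 to HOXD13.

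Among the 36 tested HOX genes, 1 rose in MORC2 KO cells and 0 fell. The gene that rose was HOXB9, which patterns the thoracic skeleton. A count of 1 in 36 stands beside 0.588% of all tested genes called higher. DESeq2 also called 1 higher and 0 lower. At an unadjusted p under 0.05, without correction, 4 HOX genes were higher (HOXB9, HOXC9, HOXD4 and HOXD13) and 0 lower, where 8.14% of all tested genes were higher and 6.17% lower. Fitted changes were small. The highest was 0.53 on the log2 scale, with a median of 0.12 and 29 of 36 positive, against a median of 0.01 and 51.5% positive over all tested genes.

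Genes of like abundance also lay above 0 more often than below. The 9786 genes within the abundance range of the HOX genes had a median of 0.04, and 60.3% were positive. With offsets that remove the trend on abundance, 25 of 36 HOX genes were positive with a median of 0.08, and with offsets for GC content and length 27 were positive with a median of 0.09. Both KO samples lay above both WT samples for 17 of the 36 HOX genes (47.2%), where this held for 24.1% of all tested genes and 29.3% of those in the same abundance range. Both lay below for 4 (11.1%), against 23.4% of all tested genes. In the other 15 the samples overlapped. The KO samples did not contribute equally. The median deviation from the WT mean over the HOX genes was 0.04 in KO replicate 1 and 0.16 in KO replicate 2, and KO replicate 2 was the higher of the 2 in 23 of 36. Without KO replicate 2, the median over the HOX genes was 0.04 with 26 of 36 positive, and without KO replicate 1 it was 0.16 with 29 positive.

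**Figure D2:**
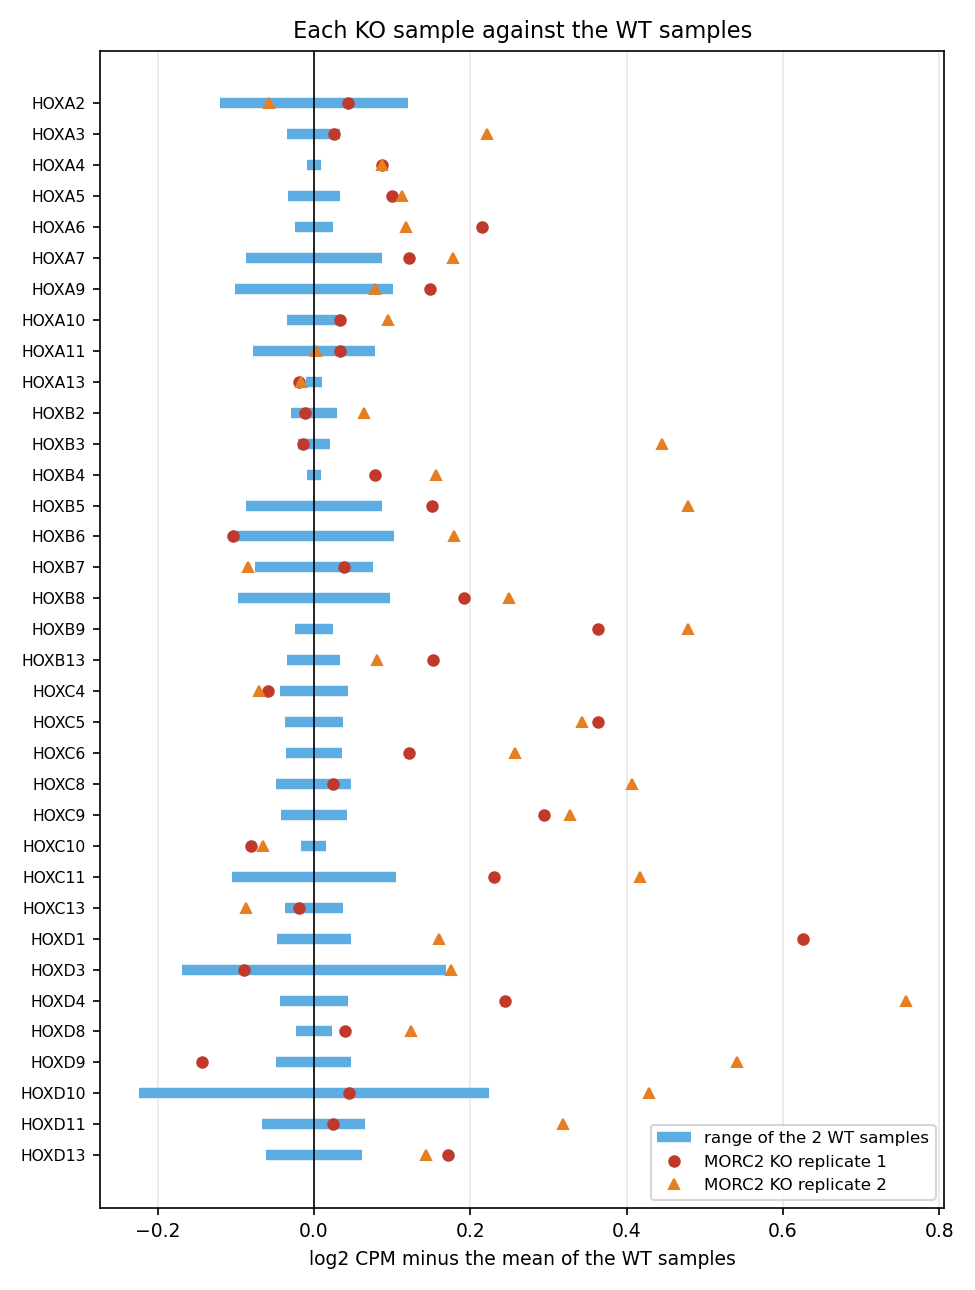
Each KO sample against the WT samples for the tested HOX genes less 1, in cluster order from top to bottom. The x axis is the log2 CPM minus the mean of the WT samples, the bar is the range of the 2 WT samples, and the circle and triangle are KO replicates 1 and 2. Both KO samples lie to the right of the WT range for 17 genes, and both are far from it for HOXB9.

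HOXB9 (Entrez identifier 3219, 2 exons, chr17:49484752-49489954 of T2T-CHM13v2.0, minus strand) had 3278 and 3921 counts in KO and 2494 and 2305 in WT. Both KO samples were above both WT samples. After scaling this was 57.1 ± 3.2 CPM in KO and 42.6 ± 0.986 CPM in WT (SD, n = 2), a log2 fold change of 0.42 ± 0.06 (SE, 95% interval 0.29 to 0.56, edgeR adjusted p = 0.00671). Over 11 alternatives with all 4 samples its adjusted p lay between 2.21e-11 and 0.00712. The lowest came from the block with replicate numbers crossed, chosen after seeing the data, where 903 genes were called higher and 809 lower. The alternative at an adjusted p under 0.1 changed only the threshold, so its p was that of the main fit. In the fits without 1 sample the log2 fold change lay between 0.37 and 0.48. None of its exonic bases is shared with another gene in the table.

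The genes beside HOXB9 had smaller estimates. HOXB8, 5.9 kb away and also a gene of the trunk, had a fitted log2 change of 0.22 ± 0.11 (SE, adjusted p = 0.361), with 532 and 612 counts in KO and 433 and 443 in WT. HOXB13, 98.4 kb away on the other side and known from prostate and tail development, had 0.12 ± 0.07 (adjusted p = 0.465). HOXB7 had -0.02 ± 0.09. No test of the difference between these genes and HOXB9 was made. HOXB9 took 39.3% and 39.9% of all HOXB counts in the KO samples, with Wilson 95% intervals that reached together from 38.2% to 40.9%. In the WT samples it took 34.9% and 33.9%, with intervals from 32.8% to 36.0%. These intervals cover counting error only. The difference of 5.18 percentage points had an exact two-sided permutation p of 0.333, which is the smallest that 2 against 2 samples can give. That test therefore cannot decide the question, and the share rests on the same counts as the fit, so it is no separate evidence.

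The other genes of the HOXB cluster lay between -0.02 and 0.33. HOXB5, a gene of the cervical region and the gut, had 0.33 ± 0.20 from low counts (107 and 149 in KO, 90 and 91 in WT). HOXB3, a hindbrain gene, had 443 counts in KO replicate 1, near the 439 and 404 of the WT samples, and 674 in KO replicate 2. Its groups overlapped after scaling. The cluster's median was 0.12, with 8 of 9 tested genes positive, and its summed level was 144.1 ± 6.36 CPM in KO and 123.8 ± 5.31 CPM in WT. HOXB9 accounts for most of that gap, with means of 57.1 and 42.6 CPM.

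In the HOXD cluster, 8 of 8 tested genes had a positive estimate. By edgeR and by DESeq2 0 were called, and 2 (HOXD4 and HOXD13) had an unadjusted p under 0.05. Over all tested genes 51.5% were positive, 0.618% were called by edgeR, and 8.14% were higher at an unadjusted p under 0.05. HOXD4, which acts in the hindbrain and neck, had 139 and 220 counts in KO and 120 and 101 in WT. The KO samples were both above WT but far from each other, at 2.83 ± 0.711 CPM against 1.96 ± 0.0842 (SD, n = 2). Its log2 fold change of 0.53 ± 0.20 was the largest of any HOX gene and did not pass the test (adjusted p = 0.27). It was called in an edgeR fit with the replicate numbers crossed as a block (0.53, adjusted p = 0.0303), which was chosen after seeing the data. That fit called 903 of all tested genes higher and 809 lower. Without KO replicate 1 the log2 fold change of HOXD4 was 0.77 and without KO replicate 2 it was 0.25. HOXD13 had 2924 and 3168 counts in KO and 2476 and 2410 in WT, with no overlap after scaling. Its log2 fold change was 0.16 ± 0.06 (adjusted p = 0.299), and its share of HOXD counts was 71.4% and 67.1% in KO and 68.5% and 70.7% in WT. HOXD1, an anterior gene with 37 and 29 counts in KO and 24 and 20 in WT, had 0.43 ± 0.35. The cluster's median was 0.21, with 0.03 without KO replicate 2 and 0.13 with abundance offsets.

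The HOXC cluster held changes of both signs. HOXC9, a gene of thoracic spinal cord identity, had 367 and 415 counts in KO and 289 and 274 in WT. The groups did not overlap, and the log2 fold change of 0.31 ± 0.12 missed the threshold (adjusted p = 0.27). HOXC5, a cervical gene, had 134 and 146 counts in KO and 106 and 90 in WT, with 0.36 ± 0.18 (adjusted p = 0.379). HOXC10, a gene of lumbar identity and the highest of its cluster per length, had 946 and 1056 counts in KO and 984 and 900 in WT. Scaled to library size its KO samples were both slightly below WT (15.9 ± 0.114 against 16.7 ± 0.264 CPM), with -0.07 ± 0.08 (adjusted p = 0.68). HOXC4 and HOXC13 also had estimates below 0, at -0.07 and -0.05. The median was 0.21 over 8 tested genes, 5 of them positive, with 0.08 without KO replicate 2 and 0.14 with abundance offsets. The summed level of 62.9 ± 1.59 CPM in KO and 60.5 ± 0.19 CPM in WT differed little.

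The HOXA cluster showed the narrowest range of positive estimates. HOXA5 had 2682 and 2990 counts in KO and 2434 and 2279 in WT. Its samples did not overlap after scaling (45.1 ± 0.282 against 41.9 ± 1.35 CPM), with 0.11 ± 0.06 (adjusted p = 0.43). HOXA13 and HOXA2 had estimates of -0.02, and HOXA6 had the highest of the cluster at 0.17. From HOXA6 towards HOXA13 the estimates were 0.17, 0.15 (HOXA7), 0.11 (HOXA9), 0.07 (HOXA10), 0.02 (HOXA11) and -0.02, each within its standard error of the next. Their order was not tested. The cluster's median was 0.09, with 0.04 without KO replicate 2 and 0.06 with abundance offsets.

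**Figure D3:**
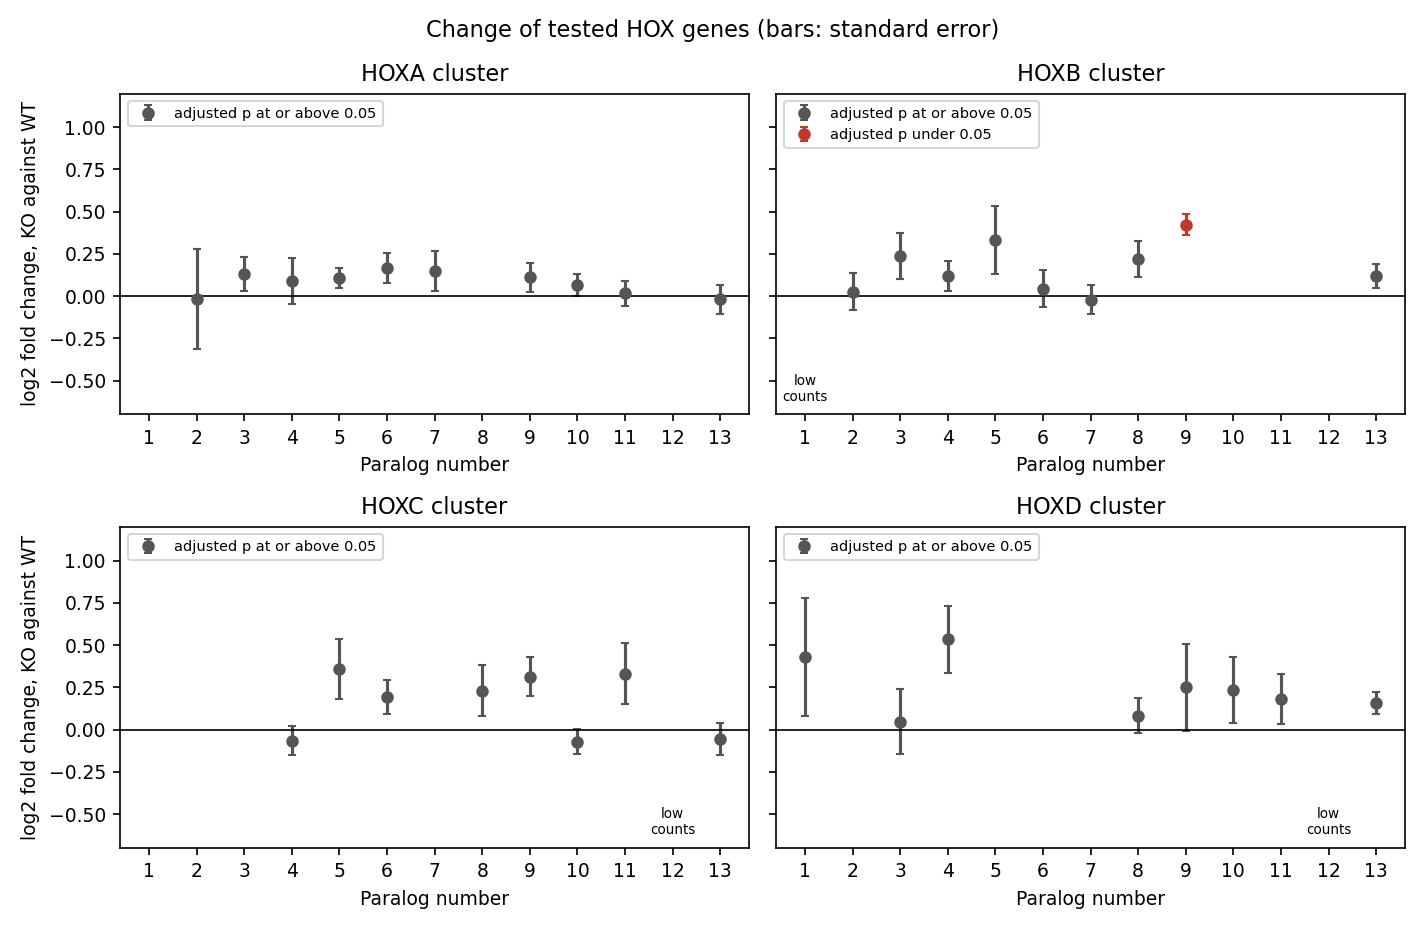
Fitted log2 fold change of the tested HOX genes less 1, KO against WT, by cluster and paralog number, with bars of 1 standard error. HOXB9 at 0.42 is the only point past an adjusted p of 0.05, HOXD4 at 0.53 is higher but with a wide bar.

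By position, the 15 central genes had a median change of 0.15 with 13 positive, the 14 tested posterior genes 0.14 with 11 positive, and the 7 tested anterior genes 0.05 with 5 positive. Both KO samples lay above both WT samples in 11 of 15 central genes, 5 of 14 posterior and 1 of 7 anterior genes. These are 73.3%, 35.7% and 14.3%, against 24.1% of all tested genes and 29.3% of those in the abundance range of the HOX genes. Differences between positions were not tested. In paralog group 9 all 4 genes had positive estimates, with HOXA9 at 0.11, HOXB9 at 0.42, HOXC9 at 0.31 and HOXD9 at 0.25. All 3 tested genes were also positive in each of groups 3, 5, 6, 8 and 11, so this was not particular to group 9. The median was 0.28 in group 9 and 0.33 in group 5. HOXD9 had 64 and 115 counts in KO and 73 and 61 in WT, so its samples overlapped. In paralog group 13 the estimates were -0.02 for HOXA13, 0.12 for HOXB13, -0.05 for HOXC13 and 0.16 for HOXD13.

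The precision differed between members. The standard error ran from 0.06 for HOXA5 to 0.35 for HOXD1, and the median was 0.11. For the highly expressed genes the data left room only for small changes, with 95% intervals of -0.02 to 0.24 for HOXA5 and 0.02 to 0.29 for HOXD13. For HOXD1 the interval was -0.33 to 1.19, so changes of moderate size were not detectable at this depth and number of samples.

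**Figure D4:**
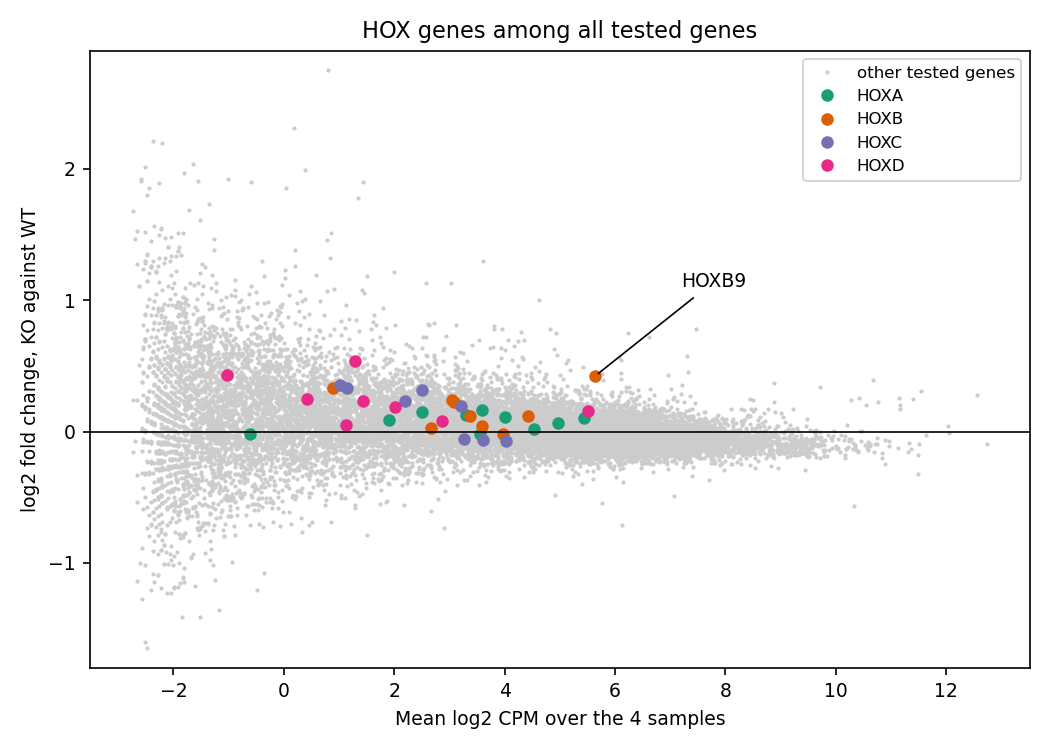
The tested HOX genes less 1 (coloured by cluster) among the other tested genes (grey), with mean log2 CPM on the x axis and the log2 fold change, KO against WT, on the y axis. HOX genes reach up to 0.53, within the cloud of other genes, and HOXB9 stands at its upper edge at 0.42.

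The long non-coding and microRNA genes of the clusters held no call. Of 25 in the table, 17 were tested and 0 were called, against 0.618% of all tested genes. Their median log2 change was 0.19, with 13 positive. DESeq2 also called 0. At an unadjusted p under 0.05, 8.14% of all tested genes were higher and 6.17% lower, and of these 17 genes 1 was higher and 0 lower. That gene was HOXC-AS2, an antisense RNA, with 56 and 84 counts in KO and 46 and 35 in WT (0.63 ± 0.27, adjusted p = 0.325). HOTAIR, the long non-coding RNA of the HOXC cluster, had 105 and 172 counts in KO and 98 and 84 in WT (0.44 ± 0.22, adjusted p = 0.375). The largest estimate was that of HOXBLINC, at 0.69 ± 0.50 from 12 and 17 counts in KO and 9 and 7 in WT. HOTAIRM1, a long non-coding RNA of the HOXA cluster, was the highest by count, with 542 and 623 in KO and 524 and 468 in WT, and had 0.07 ± 0.10. Strand was not used in counting and pairs in shared exons were dropped, so the values of antisense genes and of the HOX genes they overlap are less certain.

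The neighbourhood of the clusters was taken as the 3 nearest protein-coding genes on each side, 24 in all, which lay between 8.8 and 1033.5 kb from the cluster. Over all tested genes, 0.618% were called, and 8.14% were higher and 6.17% lower at an unadjusted p under 0.05. Of the 21 tested here, 0 were called (0 by DESeq2), with 1 higher and 2 lower at an unadjusted p under 0.05. Their median was -0.03. CALCOCO1, 211.1 kb from HOXC, was the higher of these at 0.28 (adjusted p = 0.167), and ATP5MC1 and ATP5MC3 were the lower at -0.22 and -0.21. They lie 164.2 kb from HOXB and 910.3 kb from HOXD. TTLL6, 33.5 kb from HOXB13, had the largest estimate at 0.50 from 10 and 17 counts in KO and 12 and 5 in WT. PRAC2, which lies between HOXB9 and HOXB13, had 15 and 23 counts in KO and 28 and 16 in WT.

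The regulators of HOX genes showed no called change, and DESeq2 also called 0 genes in each of the regulator, homeobox and signalling lists that follow. Only 0.618% of all tested genes were called, so 0 calls in lists of this size do not set them apart. At an unadjusted p under 0.05, 8.14% of all tested genes were higher and 6.17% lower. Of 12 genes of PRC2, the Polycomb complex that methylates histone H3, 0 were called and the median was -0.003. EZH1, 1 of its catalytic subunits, had 1922 and 2490 counts in KO and 1702 and 1525 in WT (0.29 ± 0.08, unadjusted p = 0.0028, adjusted p = 0.154), and was the only PRC2 gene under an unadjusted p of 0.05. EZH2, its main catalytic subunit in dividing cells, had -0.06 ± 0.06. Of 19 genes of PRC1, the Polycomb complex that ubiquitinates histone H2A, 0 were called by the adjusted test, 0 had an unadjusted p under 0.05, and the median was 0.001. The largest estimate there was that of the reader subunit CBX7 at 0.15 ± 0.12, from 489 and 697 counts in KO and 481 and 468 in WT. Of 16 Trithorax and MLL genes, 0 were called and 0 had an unadjusted p under 0.05, with a median of -0.02 and the largest estimate for the demethylase gene KDM6B at 0.11 ± 0.07. Its counts were 2961 and 3541 in KO and 3017 and 2400 in WT.

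Relatives of the HOX genes and the genes of a signal upstream of them held no call either. The shares over all tested genes given above apply to these lists as well. Of 13 ParaHox and HOX-like homeobox genes, 5 were tested and 0 called, also at an unadjusted p under 0.05. The ParaHox gene CDX2, an intestinal regulator, was well expressed at 2028 and 2125 counts in KO and 1927 and 2011 in WT, and PDX1 had the largest estimate at 0.15 ± 0.12, from 291 and 337 counts in KO and 266 and 241 in WT. Of 16 genes of retinoic acid signalling, which acts upstream of HOX genes in the embryo, 12 were tested and 0 called, with 1 higher (RXRB) and 0 lower at an unadjusted p under 0.05. Their median was -0.05, and the largest estimate was -0.53 ± 0.35 for CYP26A1, which degrades retinoic acid, from 18 and 31 counts in KO and 33 and 30 in WT.

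The HOX genes were set beside other gene classes. Of 68 genes of the PAX, LHX, TBX, GATA, IRX, NKX, DLX and sine oculis families, 54 were tested and 0 called (0 by DESeq2), with a median of 0.03 and 55.6% positive. At an unadjusted p under 0.05, 4 of these were higher and 1 lower, against 8.14% and 6.17% of all tested genes. The largest estimate was that of LHX1, a kidney gene, at 0.48, from 42 and 64 counts in KO and 41 and 27 in WT. Of the protein-coding genes named ZNF plus digits, 412 were tested, of which 10 were called higher (ZNF22, ZNF32, ZNF232, ZNF234, ZNF239, ZNF284, ZNF302, ZNF550, ZNF551 and ZNF772) and 0 lower. Over all tested genes 0.588% were called higher and 0.03% lower. DESeq2 called 12 ZNF genes higher and 0 lower, and 115 higher and 17 lower among all 16675 tested genes. At an unadjusted p under 0.05, 2 ZNF genes were lower. The median of the ZNF genes was 0.11 with 81.8% positive, and that of the HOX genes was 0.12 with 80.6% positive. Both KO samples lay above both WT samples in 50.2% of the ZNF genes, against 24.1% of all tested genes. The median deviation from the WT mean was 0.095 in KO replicate 1 and 0.122 in KO replicate 2 for the ZNF genes. For the HOX genes it was 0.044 and 0.158, so their shift lay mostly in KO replicate 2. In the higher direction, unadjusted p-values under 0.05 were found for 109 of the 412 ZNF genes and 4 of the 36 HOX genes. The share over all tested genes was 8.14%. The largest ZNF estimate was that of ZNF671 at 1.34 (adjusted p = 0.27). The lists were not tested against each other.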

How the data were processed

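Polyadenylated RNA of 2 MORC2 KO and 2 WT HEK293T samples was analysed. The authors mapped reads with subread 2.0.6 on the T2T-CHM13v2.0 assembly and deposited featureCounts counts of read pairs per RefSeq gene, without normalization. Per the file headers, multi-mapping reads were counted, strand was ignored and pairs that overlapped more than 1 gene were dropped, whereas the methods speak of default options. The table held 0 columns of other samples. Of 28775 genes, 28763 were given a symbol from RefSeq (GRCh38.p14) by Entrez identifier, and promoter sequences came from the same release. Coordinates on T2T-CHM13v2.0 and exonic lengths are the authors', and no coordinate was converted.

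All genes were fitted in R 4.3.3 with edgeR 4.0.16 after the study's methods, with filterByExpr (16675 genes left), TMM factors (0.986 to 1.028), the older quasi-likelihood F-test on genotype alone and Benjamini-Hochberg adjustment over all tested genes at 0.05. Standard errors were obtained from the log2 fold change and its F statistic (change over root F). CPM are TMM-scaled, and deviations between samples use log2 CPM with a prior count of 2. Counts summed to between 53970043 and 64312514 in a sample. The biological coefficient of variation was 5.33%.

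HOX members, gene lists and tests were chosen with earlier results of these data known. Values per sample are given for each tested HOX gene that was called, had an unadjusted p under 0.05, was highest per length or had the largest change in its cluster, and for the largest change of each list except the ZNF genes, whose called genes are only named. The separate values of 1 HOX gene and the results of 1 list of related genes are not reported here, and the figures leave that HOX gene out. HOXB3, HOXB5, HOXB8, HOXD1, HOXD9, HOXC-AS2, HOTAIR, HOTAIRM1, EZH2, CDX2, RXRB, PRAC2 and the low-count members were named outside this rule after their values were seen. Alternatives were the newer edgeR form, DESeq2 1.42.0, other scaling, filters and threshold, loess offsets (span 0.3) for abundance or for GC content and length (GC from GENCODE 29 transcripts, found for 94.9% of tested genes and for all 36 tested HOX genes), the replicate number as a block, and leaving out each sample. The fit was tested on simulated data with known changes.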

Additional observations from a re-analysis of the deposited data

How the results depend on the processing

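HOXB9 was the 1 HOX gene called higher in each alternative other than the crossed block that used all 4 samples (log2 fold change 0.39 to 0.46), and 0 HOX genes were called lower in any. Without 1 sample in turn, between 1 and 4 HOX genes were called higher and between 0 and 0 lower, and 4 (HOXB3, HOXB9, HOXC8 and HOXD4) came without KO replicate 1. In such fits the lone sample is assumed to vary like the other group. Over all genes, 98 higher and 5 lower became 463 and 182 with no filter on low counts, 191 and 109 with GC content and length offsets, 115 and 17 with DESeq2, 91 and 8 with abundance offsets, and 147 and 15 at an adjusted p under 0.1. Without 1 sample they ranged from 86 to 1598 higher and from 9 to 1936 lower, with both maxima without KO replicate 1. Without KO replicate 2 they were 120 and 22, without WT replicate 1 147 and 9, and without WT replicate 2 86 and 14. With the replicate number as a block, 237 genes were higher and 42 lower, with 1 HOX gene higher (HOXB9) and 0 lower. The numbers do not pair the samples (correlation of same-numbered deviations -0.124, and -0.3 among genes with higher counts). With the numbers crossed, a block chosen after seeing the data, 903 genes were higher and 809 lower, with 2 HOX genes (HOXB9 and HOXD4) among the higher. Cluster medians of the log2 fold change moved with library size alone to 0.13 (HOXA), 0.16 (HOXB) and 0.25 (HOXC), with abundance offsets to 0.056 (HOXA), 0.14 (HOXC) and 0.13 (HOXD), and with GC content and length offsets to 0.06 (HOXA), 0.17 (HOXC) and 0.16 (HOXD). Without 1 sample they ranged from 0.037 to 0.099 in HOXA, 0.081 to 0.179 in HOXB, 0.075 to 0.294 in HOXC and 0.034 to 0.247 in HOXD. The shares of the summed WT level were 38.7% (HOXA), 30.8% (HOXB) and 15.5% (HOXD) without length, and 48.2%, 25.2%, 14.3% and 12.3% for HOXA to HOXD per unshared exon length, a measure also chosen after seeing the data. No estimate changed sign among MORC2 and the HOX genes named by rule. Causes of these shifts were not tested.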
